A study of Mus musculus with 6 samples.

Results

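The genes described here are the matrix proteases and their inhibitors, 43 of the 19505 genes that the array annotation names by 1 symbol. They were chosen by symbol alone and comprise 21 matrix metalloproteinases (Mmp), 18 secreted proteases of the Adamts family and the 4 tissue inhibitors of metalloproteinases (Timp1 to Timp4). Each gene had 1 probe set. Other genes of these families are not analysed here. The RNA is that of 3 derivatives of melan-a, a pigment cell line of C57BL/6J mice that is immortalized, grown in RPMI with fetal bovine serum and left untreated. Of these, mKitK641E(T), here T, and mKitK641E(PT), here PT, carry c-kit with the K641E substitution, an activating change in the receptor tyrosine kinase Kit, and are described as melanoma in the labels. The mVec line carries the control vector CD516B2 and is described as melanocytes, the tissue label that all 3 lines share. Each line was read on 2 Affymetrix Clariom S arrays, 6 in all. The T arrays are titled C3# and the PT arrays hi exp. What T, PT and these titles stand for, the promoter that drives the transgene, and whether a line is 1 clone are not stated in the labels. Each group is 1 line, and nothing in the labels says that its arrays come from separate cultures, so errors and p-values cover array-to-array spread only, which may be technical.

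Matrix metalloproteinases are zinc enzymes that are made as inactive proenzymes and together cleave most proteins of the extracellular matrix. Adamts proteases share the zinc centre, carry thrombospondin repeats that hold them in the matrix, and cut proteoglycans, procollagens and other matrix proteins. Timp proteins bind the active site of Mmp enzymes and block it, and Timp3 also blocks Adamts4 and Adamts5. In melanoma, these proteases are studied for their part in the passage of tumour cells through basement membrane and dermis.

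Values are the deposited log2 expression values, on which a difference of 1 is a 2-fold change, and they were compared for each gene across arrays and not between genes. A background limit was set for each array so that 95% of its 5222 negative-control probe sets lay under it, and the 6 limits ran between 8.74 and 9.16. A group whose arrays both lie under their limits is called at background. A fold against such a group is given as "at least", measured against the limit, and no fold is given between 2 groups at background. Differences are those of T and of PT from mVec, and of T from PT, with the standard error of a limma fit over all 22206 gene probe sets, and a gene was called at an adjusted p under 0.05. On each array 29.0% to 32.6% of gene probe sets were above the limit. Across probe sets, which are not independent replicates, the correlation between the arrays of a line was 0.993 for T, 0.994 for PT and 0.995 for mVec. Of 10 markers of pigment cells, 8 were at background on all 6 arrays, among them Tyr, Tyrp1, Dct, Pmel, Mlana and Sox10. The exceptions were Gpnmb, above background on all 6 arrays, and Mitf, above it on the T arrays alone. Mitf had 9.01 and 9.10 in T, against limits of 8.93 and 8.74, with 7.98 and 8.07 in mVec. In PT it had 8.99 and 8.74, just under limits of 9.16 and 8.86. Mitf was called higher than in mVec in both T (1.03 ± 0.20, adjusted p = 0.00314) and PT (0.84 ± 0.20, adjusted p = 0.00901). It was not called between T and PT (adjusted p = 0.637). Gpnmb was called lower than in mVec, 2.73-fold in T and 5.36-fold in PT.

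Of the 43 genes, 21 were lower and 3 higher in T than in mVec, or 48.8% and 6.98%, where 15.5% of all gene probe sets were called lower and 16.9% higher (32.4% in either direction). In PT, 21 were lower and 1 higher, or 48.8% and 2.33%, against 18% and 17.9% of all gene probe sets (35.9% in either direction). The median difference over the 43 genes was -0.49 in T and -0.89 in PT, and over all gene probe sets it was 0.01 in T and 0.08 in PT. In each comparison, 12 of the lower genes were above background on at least 1 array and the other 9 were at background in both groups. Every gene called higher was at background in both groups. The arrays of T did not overlap those of mVec for 32 of the 43 genes, or 74.4%, against 61.6% of all gene probe sets, and those of PT for 36, or 83.7%, against 64.8%. Leaving out T replicate 2, mVec replicate 1 or mVec replicate 2 reduced the genes higher in T to 1, and leaving out PT replicate 2 gave 2 higher in PT, where Adamts13 was added (adjusted p = 0.048). Both comparisons use the same mVec arrays and are not independent. These are bulk measurements, in which fewer cells of a type and less RNA per cell cannot be told apart.

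**Figure D1:**
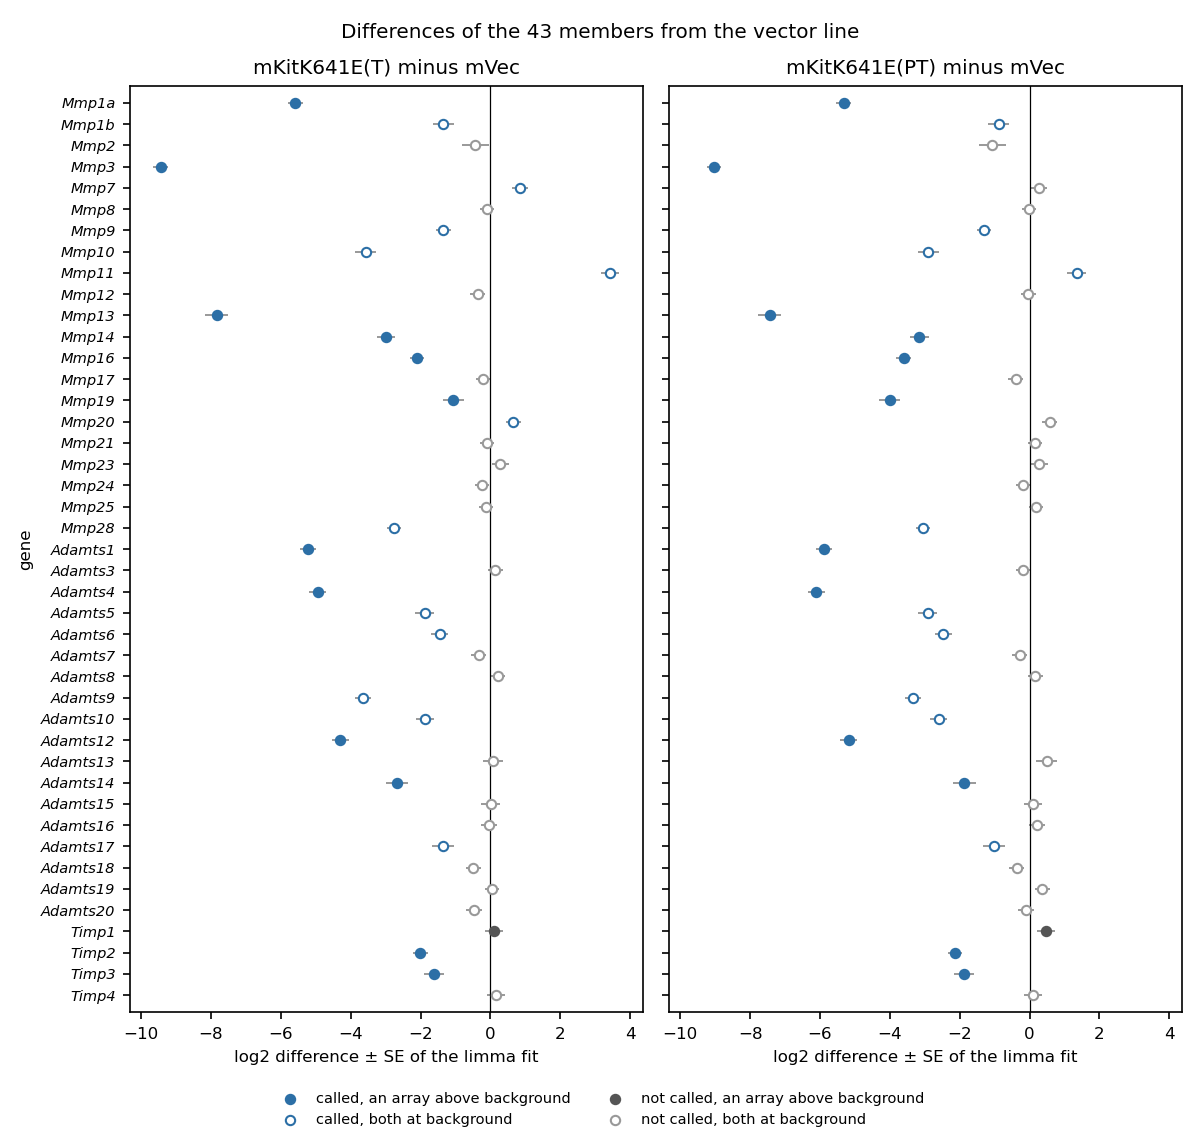
Log2 difference of each of the 43 genes from mVec, with the standard error of the limma fit, in T (left panel) and PT (right panel). Filled points had at least 1 array above background and open points had none, blue marks a called difference, and Mmp3 stands at -9.44 in T and -9.04 in PT.

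Mmp3 and Mmp13, which exceeded the limit on mVec arrays only, lie in the Mmp cluster of chromosome 9, where 9 of the 21 Mmp genes follow each other in the order Mmp13, Mmp12, Mmp1b, Mmp3, Mmp1a, Mmp10, Mmp8, Mmp20 and Mmp7. Promoters of the 5 cluster genes called lower in both Kit lines are shown beside those of Mmp8 and Mmp20, which were not, and that of Adamts1 is shown for a gene outside the cluster that was at background in the Kit lines and above it in mVec. Each stretch runs from 110 bases before to 20 bases after the RefSeq start of the gene in build GRCm38.p6. Capitals mark 2 motifs searched on both strands: TGANTCA, a site of the AP-1 transcription factors, and TATAAA, letters of the TATA box. In Mmp8 the TATAAA match is on the opposite strand and reads TTTATA. No capitals of the 2 motifs overlap.
Mmp13, chr9:7272404-7272533, plus strand: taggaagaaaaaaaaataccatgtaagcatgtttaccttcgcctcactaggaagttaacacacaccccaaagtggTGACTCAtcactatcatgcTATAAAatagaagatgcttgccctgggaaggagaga
Mmp1b, chr9:7388007-7388136, minus strand: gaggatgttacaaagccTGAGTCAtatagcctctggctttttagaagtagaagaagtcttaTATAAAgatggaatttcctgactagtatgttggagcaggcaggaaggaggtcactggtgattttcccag
Mmp3, chr9:7445712-7445841, plus strand: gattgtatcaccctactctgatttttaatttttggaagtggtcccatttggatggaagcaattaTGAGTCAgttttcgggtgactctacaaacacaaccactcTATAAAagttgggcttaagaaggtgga
Mmp1a, chr9:7464031-7464160, plus strand: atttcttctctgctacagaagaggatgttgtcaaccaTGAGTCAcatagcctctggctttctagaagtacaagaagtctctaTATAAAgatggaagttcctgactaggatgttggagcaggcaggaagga
Mmp10, chr9:7502232-7502361, plus strand: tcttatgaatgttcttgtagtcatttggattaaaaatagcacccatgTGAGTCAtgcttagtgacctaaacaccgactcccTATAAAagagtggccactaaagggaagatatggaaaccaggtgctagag
Mmp8, chr9:7558319-7558448, plus strand: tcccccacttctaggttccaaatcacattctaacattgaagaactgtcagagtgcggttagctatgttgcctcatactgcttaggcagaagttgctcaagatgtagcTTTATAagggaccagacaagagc
Mmp20, chr9:7628121-7628250, plus strand: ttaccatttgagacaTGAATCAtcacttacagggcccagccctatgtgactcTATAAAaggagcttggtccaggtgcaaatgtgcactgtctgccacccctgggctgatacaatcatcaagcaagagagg
Adamts1, chr16:85803094-85803223, minus strand: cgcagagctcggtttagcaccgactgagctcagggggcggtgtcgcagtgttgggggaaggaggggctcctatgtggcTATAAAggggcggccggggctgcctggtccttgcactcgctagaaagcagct

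RefSeq gave 32 promoter windows of 300 bases for 29 of the 43 genes, among them 11 windows for the 9 cluster genes. TGANTCA was present in 8 of the 11 cluster windows, or 72.7%, and in 7.81% of all 32851 promoter windows. Among members above background on an mVec array and lower in T, 3 of 9 windows held it, or 33.3%. The 11 cluster windows are not independent, because Mmp12 and Mmp7 have 2 each and Mmp1a and Mmp1b are near copies. TATAAA was present in 9 of the 11 cluster windows, or 81.8%, and in 13.6% of all windows. Among the cluster genes shown, its place varied from 58 bases before the start in Mmp20 to 3 bases before it in Mmp8. Outside the cluster, none of the members' windows held TGANTCA. The AP-1 letters began 46 bases before the start in Mmp3, 35 bases before it in Mmp13, 73 in Mmp1a, 93 in Mmp1b and 63 in Mmp10. Mmp20 and Mmp7, which were not lower in the Kit lines, held the motif too, 95 and 63 bases before the start, and the window of Mmp8 did not hold it. The motif was present in cluster genes that were called lower and in cluster genes that were not. Mmp7, Mmp8, Mmp12 and Mmp20, not called lower, were at background in mVec too, with means of 3.38, 3.82, 4.53 and 5.13. Such genes had little or no signal to lose, so this contrast cannot tell whether the motif goes with a fall. Mmp1b and Mmp10 were also at background in mVec, with means of 5.46 and 7.51, but were called lower. A link between motif and fall was not tested. A match of letters is a description only, and Mmp12 and Mmp7 have 2 windows each, of which 1 held TGANTCA.

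Mmp3, stromelysin-1, which cleaves proteoglycans, laminin and fibronectin and activates other Mmp proenzymes, had values of 5.18 and 5.25 in T, with 5.49 and 5.73 in PT and 14.58 and 14.73 in mVec. Both mVec arrays were far above background and all 4 arrays of the Kit lines were below it. Mmp3 was lower in T by at least 56.5-fold (difference -9.44 ± 0.21, adjusted p = 1.45e-08) and in PT by at least 49.9-fold (-9.04 ± 0.21, adjusted p = 8.59e-09). Mmp13, collagenase-3, which cuts fibrillar collagen, had 5.43 and 5.0 in T, with 6.13 and 5.09 in PT and 12.90 and 13.19 in mVec. It was lower in T by at least 18.5-fold (-7.83 ± 0.33, adjusted p = 1.83e-07) and in PT by at least 16.4-fold (-7.43 ± 0.33, adjusted p = 1.63e-07). For both genes the Kit lines did not overlap mVec.

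Mmp1a, an interstitial collagenase, had 3.55 and 3.45 in T, with 3.69 and 3.83 in PT and 9.23 and 8.93 in mVec, where 1 of the 2 arrays was above its limit. It was lower in T by at least 1.19-fold and in PT by at least 1.05-fold, bounds that are small because the mVec values lie at the limit, while the log2 differences were -5.58 ± 0.21 and -5.32 ± 0.21. Mmp10, stromelysin-2, was at background on all 6 arrays, at 4.4 and 3.47 in T, with 4.69 and 4.53 in PT and 7.65 and 7.38 in mVec. It was called lower in both lines, by -3.57 ± 0.30 in T and -2.90 ± 0.30 in PT. Mmp1b, the close relative of Mmp1a in the same cluster, had 3.80 and 4.42 in T, with 4.25 and 4.89 in PT and 5.26 and 5.66 in mVec, all at background. It was called lower in T (-1.35 ± 0.30, adjusted p = 0.00565) and in PT (-0.89 ± 0.30, adjusted p = 0.0419), and because Mmp1a and Mmp1b are near copies, how far each probe set reads the other is uncertain. The Mmp1b call in PT was lost without PT replicate 1 (adjusted p = 0.281), mVec replicate 1 (0.059) or mVec replicate 2 (0.226), with median centring (0.0971) and with quantile normalization (0.0621), over a range of 0.00848 to 0.281. In T it was lost without mVec replicate 2 (adjusted p = 0.0506, range 0.00112 to 0.0506).

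The remaining cluster genes were at background on every array and were not called lower. Mmp8, the neutrophil collagenase, had 3.77 and 3.70 in T, with 3.85 and 3.75 in PT and 3.80 and 3.85 in mVec. Mmp12, the macrophage elastase, had 4.27 and 4.06 in T, with 4.59 and 4.4 in PT and 4.51 and 4.54 in mVec. Neither was called in any comparison. Mmp7, matrilysin, was called higher in T (0.85 ± 0.22, adjusted p = 0.0153), with 4.0 and 4.46 in T against 3.46 and 3.30 in mVec, and not in PT, where it had 3.67 and 3.64. The enamel protease Mmp20 was called higher in T as well (0.66 ± 0.21, adjusted p = 0.0366), at 5.70 and 5.88 in T, with 5.82 and 5.58 in PT and 5.21 and 5.05 in mVec. Both calls depended on single arrays. That of Mmp7 was lost without T replicate 2 (adjusted p = 0.0967), mVec replicate 1 (0.0511) or mVec replicate 2 (0.104), over a range of 0.00576 to 0.104. That of Mmp20 was lost without T replicate 1 (0.0534), T replicate 2 (0.143), mVec replicate 1 (0.0989) or mVec replicate 2 (0.196), and with an intensity trend in the prior (0.0809), over a range of 0.0112 to 0.196. In PT Mmp20 missed the threshold (0.57 ± 0.21, adjusted p = 0.0606) and passed it with median centring (0.0171) and quantile normalization (0.0246). Across the cluster, 5 of 9 genes were lower in each Kit line, where 15.5% of all gene probe sets were lower in T and 18% in PT, and 3 of the 9 were above background on an mVec array.

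**Figure D2:**
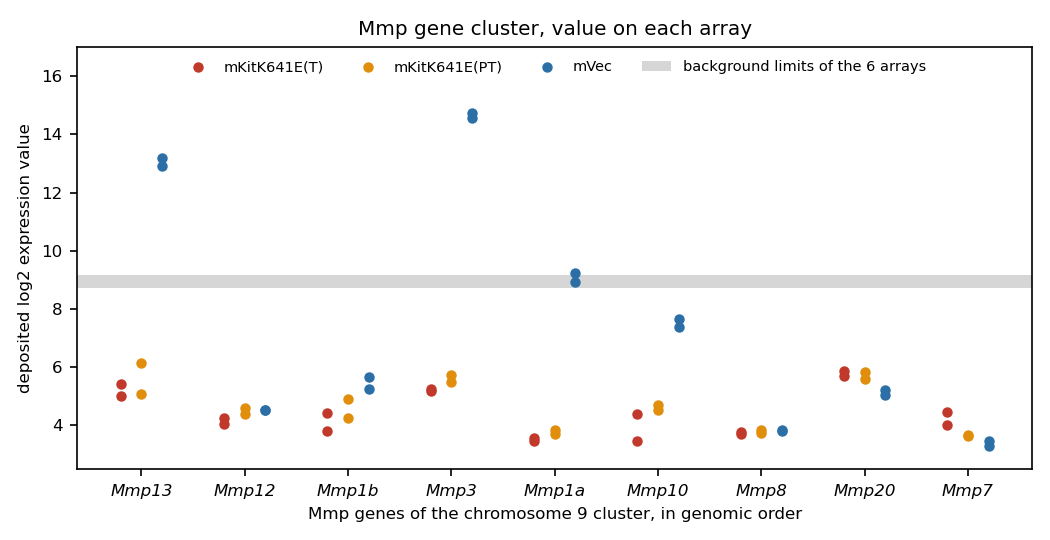
Deposited log2 value on each array for the 9 Mmp genes of the chromosome 9 cluster in genomic order, with the range of the 6 background limits in grey. Mmp13 and Mmp3 were above background on both mVec arrays and Mmp1a on 1, and none of the 9 was above it in T or PT.

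Among the membrane-type enzymes, Mmp14, which activates proMmp2 at the cell surface and cuts pericellular collagen, was above background in every group. Its values were 11.04 and 11.28 in T, with 10.64 and 11.34 in PT and 14.06 and 14.24 in mVec. Mmp14 was 7.93-fold lower in T (-2.99 ± 0.26, adjusted p = 1.59e-05) and 8.91-fold lower in PT (-3.16 ± 0.26, adjusted p = 7.69e-06), and T and PT overlapped. Mmp16, a related membrane enzyme, had 8.85 and 8.71 in T, with 7.24 and 7.32 in PT and 11.01 and 10.77 in mVec. Both mVec arrays were above background and no array of the Kit lines was, which makes it lower in T by at least 4.16-fold and in PT by at least 3.68-fold (-2.11 ± 0.21 and -3.61 ± 0.21). The other 3 membrane-type genes, Mmp17, Mmp24 and Mmp25, were at background on all arrays and called in no comparison.

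Mmp19, a widely expressed enzyme that degrades basement membrane proteins, separated the Kit lines. It had 10.58 and 10.99 in T, with 7.39 and 8.30 in PT and 11.89 and 11.81 in mVec, so T and mVec were above background and PT was not. Mmp19 was lower in PT by at least 7.14-fold against mVec (-4.0 ± 0.30, adjusted p = 4.08e-06). In T it was 2.09-fold lower (-1.06 ± 0.30, adjusted p = 0.0218), a call lost without T replicate 1 (adjusted p = 0.120), mVec replicate 1 (0.100) or mVec replicate 2 (0.0747) and with median centring (0.0555), over a range of 0.00524 to 0.120. Between the Kit lines T exceeded PT by at least 3.42-fold (2.94 ± 0.30, adjusted p = 0.00111), and this call held in all 13 alternatives.

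Mmp11, stromelysin-3, went the other way from Mmp3 and Mmp10. It had 7.57 and 7.18 in T, with 4.97 and 5.63 in PT and 4.09 and 3.81 in mVec, all below the limit and with no overlap between the 3 groups. The differences were 3.43 ± 0.27 in T (adjusted p = 7.84e-06), 1.35 ± 0.27 in PT (adjusted p = 0.00281) and 2.07 ± 0.27 for T minus PT (adjusted p = 0.00274). The gelatinase Mmp9 was at background at 4.73 and 4.72 in T, with 4.64 and 4.88 in PT and 6.20 and 5.94 in mVec, and was called lower in T (-1.34 ± 0.21) and PT (-1.31 ± 0.21). The gelatinase Mmp2, the target of activation by Mmp14, was at background in every group, at 5.26 and 6.35 in T, with 5.29 and 5.05 in PT and 6.69 and 5.78 in mVec. It was called in no comparison, but in PT (-1.06 ± 0.39, adjusted p = 0.0578) it passed without mVec replicate 2 (0.0225) or either T array (0.0263), with an intensity trend in the prior (0.0433) and in a fit of PT and mVec alone (0.0263). Mmp28, epilysin, was called lower at background values too, at 5.12 and 4.98 in T, with 4.77 and 4.78 in PT and 7.72 and 7.92 in mVec (-2.77 ± 0.20 in T and -3.05 ± 0.20 in PT). Mmp21 and Mmp23 were at background and not called.

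In each Kit line 9 of the 18 Adamts genes were lower, including 5 at background throughout, and 0 were called higher (0 also at an unadjusted p under 0.05 in the limma fit). Of all gene probe sets, 15.5% were lower and 16.9% higher in T, and 18% lower and 17.9% higher in PT. Adamts1, which cleaves the proteoglycans aggrecan and versican, had 7.62 and 8.09 in T, with 7.27 and 7.13 in PT and 13.04 and 13.12 in mVec. Both mVec arrays were above background and the Kit arrays were not. Adamts1 was lower in T by at least 19-fold (-5.23 ± 0.23, adjusted p = 2.2e-07) and in PT by at least 16.8-fold (-5.89 ± 0.23, adjusted p = 7.07e-08). Adamts4, an aggrecanase, had 5.45 and 5.68 in T, with 4.13 and 4.70 in PT and 10.43 and 10.60 in mVec. It was lower in T by at least 3.20-fold (-4.94 ± 0.24) and in PT by at least 2.83-fold (-6.10 ± 0.24). The aggrecanase Adamts5 was called lower at background values, at 5.07 and 5.43 in T, with 3.86 and 4.57 in PT and 7.16 and 7.12 in mVec (-1.89 ± 0.27 in T and -2.92 ± 0.27 in PT).

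Adamts9, another protease that cleaves versican and aggrecan, had 4.63 and 4.28 in T, with 4.71 and 4.79 in PT and 8.27 and 7.93 in mVec, where it was below the limit (-3.64 ± 0.23 in T and -3.35 ± 0.23 in PT). Its group of 7 proteoglycan-cleaving genes thus had 4 lower genes in each Kit line, and Adamts8, Adamts15 and Adamts20 were at background and not called. Adamts12, which cleaves the cartilage protein Comp, had 7.55 and 6.97 in T, with 6.55 and 6.19 in PT and 11.61 and 11.49 in mVec. It was lower in T by at least 6.59-fold (-4.30 ± 0.25, adjusted p = 1.2e-06) and in PT by at least 5.82-fold (-5.18 ± 0.25, adjusted p = 2.83e-07). Adamts14, which removes the amino-terminal propeptide of fibrillar procollagens, had 7.87 and 7.44 in T, with 8.81 and 8.10 in PT and 10.71 and 9.95 in mVec. It was lower in T by at least 2.81-fold (-2.67 ± 0.32) and in PT by at least 2.49-fold (-1.87 ± 0.32). Adamts3, of the same role, was at background and not called.

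Adamts10, Adamts6 and Adamts17 were called lower with all arrays at background. Adamts10, which binds fibrillin microfibrils, had 6.06 and 6.28 in T, with 5.43 and 5.43 in PT and 7.72 and 8.35 in mVec. Adamts6, its closest relative, had 7.35 and 6.87 in T, with 5.89 and 6.28 in PT and 8.64 and 8.49 in mVec. The differences were -1.87 ± 0.25 in T and -2.61 ± 0.25 in PT for Adamts10, and -1.46 ± 0.24 in T and -2.48 ± 0.24 in PT for Adamts6. Adamts17 had 2.90 and 2.93 in T, with 3.34 and 3.18 in PT and 4.80 and 3.74 in mVec, and the wide gap between its mVec arrays bears on its calls. Without mVec replicate 1 its adjusted p was 0.0587 in T (range 0.000831 to 0.0587) and 0.268 in PT. In PT its call was also lost without PT replicate 1 (0.0912), PT replicate 2 (0.139) and with median centring (0.0662), over a range of 0.00214 to 0.268. Adamts13, the protease of von Willebrand factor, and Adamts7, Adamts16, Adamts18 and Adamts19 were at background and not called.

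**Figure D3:**
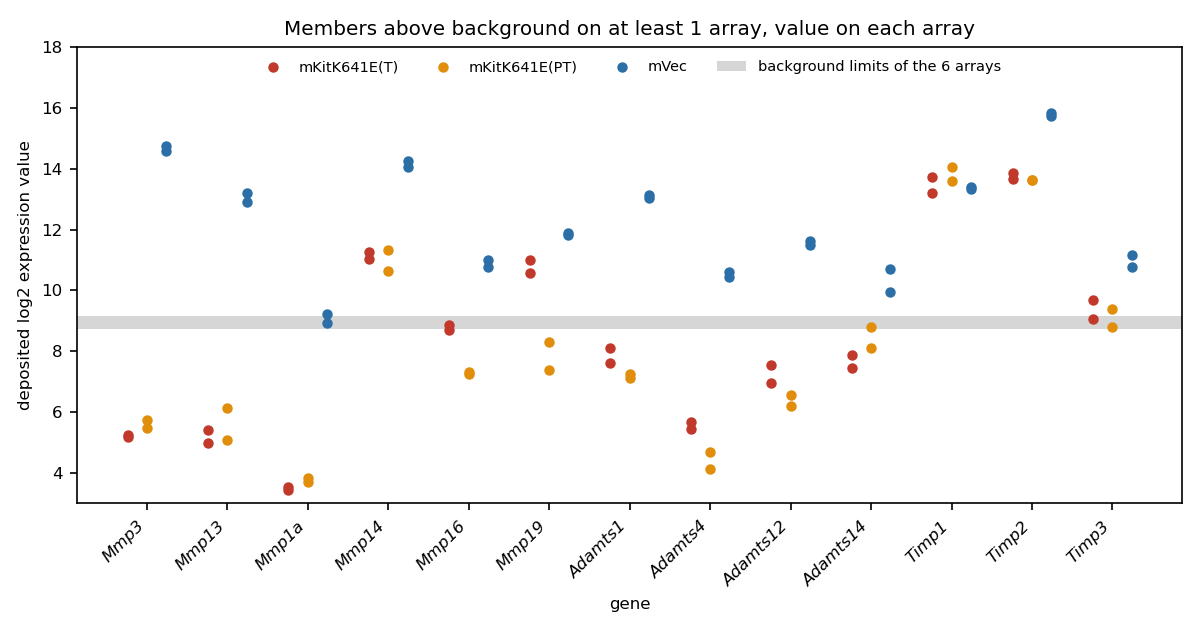
Deposited log2 value on each array for the 13 genes above background on at least 1 array, with T, PT and mVec side by side and the range of the 6 background limits in grey. Timp1 lay between 13.21 and 14.07 on all arrays, and Mmp3 had 14.58 and 14.73 in mVec against at most 5.73 in the Kit lines.

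Of the 4 inhibitors, Timp2 and Timp3 were called lower in both Kit lines, and Timp1 and Timp4 were not called. Timp1, which blocks most Mmp enzymes, had 13.21 and 13.74 in T, with 13.59 and 14.07 in PT and 13.39 and 13.34 in mVec. It did not pass the test in T (0.11 ± 0.25, adjusted p = 0.819, 95% interval -0.47 to 0.68) or in PT (0.46 ± 0.25, adjusted p = 0.211, 95% interval -0.11 to 1.04). Timp2, which blocks Mmp enzymes and also takes part in the activation of proMmp2 by Mmp14, had 13.87 and 13.67 in T, with 13.63 and 13.62 in PT and 15.72 and 15.82 in mVec. It was 4.0-fold lower in T (-2.0 ± 0.20, adjusted p = 3.82e-05) and 4.43-fold lower in PT (-2.15 ± 0.20, adjusted p = 1.71e-05), with no overlap with mVec. Timp3, the matrix-bound inhibitor that also blocks Adamts4 and Adamts5, had 9.05 and 9.68 in T, 8.81 and 9.38 in PT, where 1 array was above background, and 10.78 and 11.18 in mVec. It was 3.05-fold lower in T (-1.61 ± 0.29, adjusted p = 0.00178) and 3.68-fold lower in PT (-1.88 ± 0.29, adjusted p = 0.000554). Timp4 was at background on all arrays and not called.

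Between the Kit lines, 6 of the 43 genes were called higher in T than in PT, or 14%, and 0 lower (1 at an unadjusted p under 0.05), where 5.67% of all gene probe sets were called higher and 2.7% lower (8.36% in either direction). The arrays of T and PT did not overlap for 24 of the 43 genes, or 55.8%, against 50.1% of all gene probe sets. Of the 6, only Mmp19 was above background in either Kit line, on both T arrays. Mmp16 differed by 1.5 ± 0.21 (adjusted p = 0.00333) and Mmp11 by the value given above. Adamts4 (1.16 ± 0.24, adjusted p = 0.0201), Adamts6 (1.02 ± 0.24, adjusted p = 0.033) and Adamts5 (1.04 ± 0.27, adjusted p = 0.0452) made up the rest. For Adamts4 the call did not hold without T replicate 2 (adjusted p = 0.117) or PT replicate 1 (0.142), over a range of 0.00557 to 0.142. The calls of Adamts5 and Adamts6 were lost in 7 of 11 and 8 of 12 alternatives, over ranges of 0.0380 to 0.265 and 0.0148 to 0.209, and without PT replicate 1 they stood at 0.265 and 0.209. Adamts12 (0.89 ± 0.25, adjusted p = 0.0618) missed the threshold and passed it with the replicate number as a block (adjusted p = 0.0426), over a range of 0.0199 to 0.246. Without T replicate 2 or PT replicate 1 the count of higher genes was 3, and without T replicate 1 Mmp10 was called lower (-1.14, adjusted p = 0.0371). Mmp3, Mmp13, Mmp1a, Mmp14 and the 4 inhibitors were not called between the Kit lines.

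Genes that act with these proteases were taken from 7 lists. In the plasminogen list, the serine protease system that can activate proMmp enzymes, 3 of 11 measured genes were lower and 1 higher in T, and 4 were lower and 2 higher in PT. In either direction that is 36.4% of the list in T, near the 32.4% of all gene probe sets, and 54.5% in PT, where all gene probe sets gave 35.9%. Plat, tissue plasminogen activator, averaged 9.77 in T, with 8.53 in PT and 14.39 in mVec. In T it was 24.6-fold lower (-4.62 ± 0.21), and in PT it was lower by at least 41.6-fold. Plaur, the urokinase receptor, was 1.67-fold higher in T (0.74 ± 0.22, adjusted p = 0.0241) and 1.95-fold higher in PT (0.96 ± 0.22, adjusted p = 0.00558). Among 18 convertases, receptors and other regulators, 7 were lower and 4 higher in T, and 6 lower and 4 higher in PT, or 61.1% and 55.6% called. Reck, a membrane-anchored Mmp inhibitor, averaged 6.34 in T, with 6.29 in PT and 8.93 in mVec, where 1 array was above background, and was called lower in both lines. The proprotein convertase Pcsk6 was called higher in both lines with mVec at background, by at least 1.87-fold in PT, while in T 1 of the 2 arrays was above its limit. Lrp1, the receptor that clears several of these proteases, was 3.51-fold lower in T (-1.81 ± 0.21) and 9.13-fold lower in PT (-3.19 ± 0.21).

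Of 14 tolloids and cell surface peptidases, 9 were lower and 1 higher in each Kit line, or 71.4% called, with medians of -2.0 in T and -2.44 in PT. Of all gene probe sets, 32.4% were called in T and 35.9% in PT. The lower genes of this list included the neprilysin gene Mme. It was lower in T by at least 64.8-fold (-6.51 ± 0.29) and in PT by at least 57.2-fold (-9.95 ± 0.29). The tolloid Tll1 was lower in T by at least 5.22-fold (-6.87 ± 0.29) and in PT by at least 4.61-fold (-6.90 ± 0.29). These bounds follow the limits of the arrays and do not rank the lines. Mme had a lower value in PT than in T (T minus PT 3.44 ± 0.29), with both at background. The sheddase Adam10 was 3.16-fold lower in T and 4.43-fold lower in PT, within a list of 13 membrane ADAM genes in which 4 were lower and 0 higher in each line. That is 30.8% of the list called, a share close to that of all gene probe sets. The Adamts-like proteins, which lack the protease domain, had 2 lower and 1 higher of 7 in each line. That is 42.9%, against 32.4% of all gene probe sets in T and 35.9% in PT. Adamtsl4 was among the lower ones (-2.86 ± 0.27 in T and -2.93 ± 0.27 in PT). In the cathepsin list, 4 of 12 were lower and 2 higher in each line, or 50% called, against the same 32.4% and 35.9%. Cathepsin B, Ctsb, was 3.09-fold lower in T and 2.90-fold lower in PT, and its inhibitor cystatin C, Cst3, 5.58-fold lower in T and 10.8-fold lower in PT. Of 19 matrix substrates of these proteases, 7 were lower and 1 higher in each line. That is 42.1% called, where all gene probe sets gave 32.4% in T and 35.9% in PT. Col3a1, a fibrillar collagen chain, was 101-fold lower in T and lower by at least 111-fold in PT, and Col1a2, another, was the one called higher, with mVec at background, by at least 1.17-fold in each line.

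**Figure D4:**
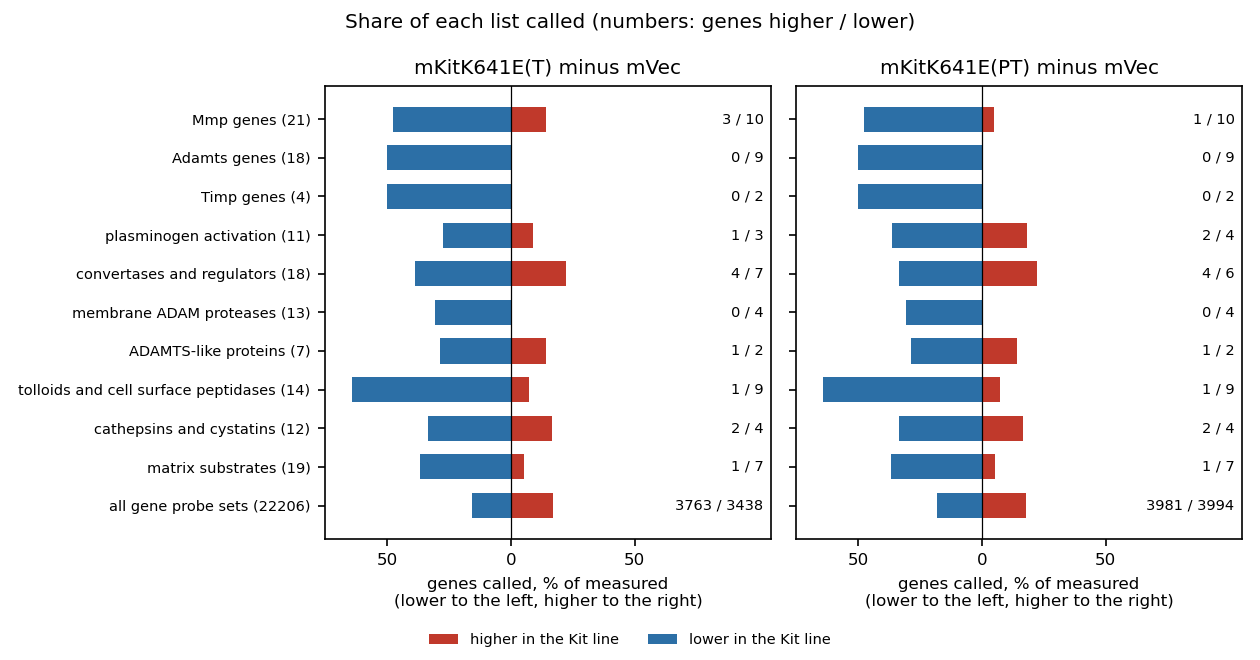
Share of measured genes called lower (to the left) and higher (to the right) than in mVec, in percent, for the Mmp, Adamts and Timp genes, the 7 lists of related genes and all 22206 gene probe sets. The numbers at the right of each row count the genes called higher and lower, and the lists hold more lower than higher genes while all gene probe sets are near balance.

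Markers of other cell types were read on the same arrays. Most fibroblast markers moved with the proteases: 8 of 11 were lower and 2 higher in T and in PT, or 72.7% and 18.2%. Of all gene probe sets, 15.5% were lower and 16.9% higher in T, and 18% and 17.9% in PT. Col1a2 was higher by 4.16 ± 0.20 in T and 4.15 ± 0.20 in PT, with mVec at background. Fbln1 was higher by 0.77 ± 0.21 in T and 0.78 ± 0.21 in PT, and Thy1 was not called. The mean log2 value of the fibroblast markers per array was 7.14 to 7.23 in T, 6.58 to 6.80 in PT and 10.8 to 10.9 in mVec. Thy1, Lum and Fbln1 were at background on all arrays, and Postn, Dcn, Fap and Col1a1 were above it in mVec alone. Dcn, Fap, Col1a1, Col1a2 and Col3a1 are also in the lists of related genes above. Of the fibroblast markers, 7 were above background in mVec, 3 in T and 1 in PT. Their part in the protease differences was not tested. Macrophage and neutrophil markers, 11 measured, were at background on all 6 arrays, as were the 8 keratinocyte markers. Of 8 endothelial markers, 6 were at background on all arrays, and Cdh5 and Flt1 were lower in both Kit lines. Of 7 cartilage and bone markers, 6 were at background on all arrays and Sox9 was higher in PT (1.69 ± 0.20).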

How the data were processed

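RNA of 6 arrays was analysed, 2 for each of 3 lines grouped by their labels. The authors deposited log2 expression values, 1 for each probe set and array; their range shows the log2 scale, and the software, background correction and normalization are unstated in the sources used here. Per the labels, RNA was isolated with an RNeasy kit, labelled with biotin and read on Clariom S arrays. Of 28846 rows, 22206 gene probe sets were tested and the 6640 other rows, among them 5222 negative controls, were left out of the fit. Genes were named from the platform annotation, which gives 19572 probe sets 1 symbol, and all 43 members matched RefSeq by gene ID.

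The deposited values were fitted with R 4.3.3 and limma 3.58.1, with 1 mean per group over all 6 arrays, 3 residual and 6.36 prior degrees of freedom. P-values are two-sided, with Benjamini-Hochberg adjustment across the gene probe sets. The fit was tested on simulated data with independent normal errors drawn from its own prior spread. Such data do not probe values at background or effects shared by the arrays of a line. Precision is limited by having 2 arrays a line. Members, lists, background limit and tests were chosen with earlier results of these data known. All members are accounted for, with values on every array for those above background on at least 1 array or called; from each list of related genes, genes were named among the up to 4 with the largest called difference in a comparison and a group above background. The protein stretches planned are not shown because no protein table was used here. Promoters follow RefSeq, build GRCm38.p6. Which cluster promoters to show was decided after their values were seen. Samples with equal replicate numbers were not treated as pairs, because the labels do not say that a number marks a shared culture or day. Their deviations correlated at 0.0823, 0.0428 and 0.0396 between the groups. Alternatives changed the prior, scaling, filter, arrays and call rule.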

Additional observations from a re-analysis of the deposited data

Results flagged for a closer look

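For 6 genes the difference from mVec was not the same in the 2 Kit lines by the T minus PT test of the fit. The values of T minus PT were 2.94 ± 0.30 for Mmp19, 2.07 ± 0.27 for Mmp11, 1.5 ± 0.21 for Mmp16, 1.16 ± 0.24 for Adamts4, 1.04 ± 0.27 for Adamts5 and 1.02 ± 0.24 for Adamts6. T was higher than PT on both arrays in each case, and in all but Mmp19 both Kit lines were at background.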

How the results depend on the processing

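The counts of lower genes, 21 in each Kit line, stayed between 14 and 22 in all alternatives but 1: among probe sets above background on 2 arrays, which tests fewer of the genes, both were 11. Genes higher in T numbered 3, then 0 under either filter on dim probe sets (a mean above the median, or 2 arrays above background), 1 with a 2-fold minimum, and 1 to 3 when an array was left out. Genes higher in PT numbered 1, then 2 with median centring, 2 with quantile normalization, 0 under either filter, and 1 to 2 when an array was left out. Lower genes ranged from 19 to 21 in T and from 19 to 22 in PT when an array was left out. Genes higher in T than in PT numbered 6 and ranged from 3 to 5, and lower ones from 0 to 1, when an array was left out. With the replicate number as a block, the counts were 21 lower and 3 higher in T, 21 and 1 in PT, and 7 higher for T minus PT, and that fit changed no call other than Adamts12. With the background limit at the 99th percentile of the negative controls (12.2 to 13.1), 2 genes were above it on both arrays in T (Timp1 and Timp2), 2 in PT and 4 in mVec (also Mmp3 and Mmp14), against 5, 3 and 12 above the 95th percentile on both arrays, and at the 90th there were 5 in PT. Median centring raised differences from mVec by 0.184 in T and 0.188 in PT, and with it 62.3% and 60.3% of all calls were higher, against 52.3% and 49.9%. Differences that turned sign when an array was left out were not called: that of Timp1 in T ran from -0.16 to 0.37, and for T minus PT those of Mmp13 ran from -0.92 to 0.12, of Mmp14 from -0.18 to 0.52 and of Timp3 from -0.049 to 0.59. The cause of these changes was not tested. Each gene had 1 probe set, so the choice of probe set changed nothing. Fits without 1 array take the spread of the lone array from the other groups.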
